A study of Homo sapiens with 4 samples.

Results

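Amino acids enter and leave cells through carriers of the solute carrier (SLC) families, and 10 genes of such carriers were followed in cells labelled NB4 in control cells and upon partial knockdown of CEBPG. NB4 is a human acute promyelocytic leukemia cell line, and marker genes given below went against this label. CEBPG is a C/EBP protein that binds DNA as a dimer with other leucine-zipper factors. The genes were SLC7A5, SLC3A2, SLC7A1, SLC1A4, SLC1A5, SLC38A1, SLC38A2, SLC6A9, SLC43A1 and SLC7A6. They were taken by symbol from the 16504 gene symbols of the expression table, the transcript entries of each symbol were summed, and all 10 were found.

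RNA-seq had been performed on 4 libraries labelled NB4. In the labels 2 libraries had CEBPG present and carried NC in their titles (control 1 and control 2), and 2 had CEBPG knockdown and carried CEBPG3 (knockdown 1 and knockdown 2). The study methods describe knockdown by lentiviral short hairpin RNAs. Whether the sequenced cells were pools or clones was not given in the sources used here. The label CEBPG3 was read as 1 of the hairpins of the study, which is an assumption, and a second hairpin was not analysed here. The labels do not say whether the 2 libraries of a group came from separate cultures, so the p-values measure only the spread between these libraries. Expression was given in FPKM (fragments scaled to transcript length and to the mapped reads of the library), and the read depth behind it was unknown.

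Transporters of this kind fall into a few working types. SLC7A5 and SLC7A6 are light chains that reach the surface as a pair with the heavy chain SLC3A2 (CD98hc), and they exchange large neutral or cationic amino acids. SLC1A4 and SLC1A5 exchange small neutral amino acids, glutamine among them for SLC1A5, together with sodium. SLC38A1 and SLC38A2 are sodium-coupled importers of glutamine and alanine, SLC6A9 imports glycine, SLC7A1 carries arginine and lysine, and SLC43A1 carries branched-chain amino acids without sodium. In many cells shortage of amino acids raises transporter genes through ATF4. ATF4 binds composite elements as a dimer with C/EBP proteins, of which CEBPG is a member.

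Of the 10 transporters 1 rose, 1 fell, and 8 did not pass the test upon CEBPG knockdown. Of all tested genes 20.9% were called, so 2 of 10 is near the background. SLC1A5, a glutamine exchanger, fell to 78.1% of its control level, and SLC6A9, the glycine importer, rose to 139% of it. SLC3A2 and SLC7A5, which form the large neutral amino acid exchanger, were at 106% and 110% of control and were not called. In bulk RNA, fewer cells with a transcript and less of it per cell cannot be told apart.

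Positions were taken from GENCODE 44 on GRCh38 (hg38). SLC1A5 lies at chr19:46774883-46788594 on the minus strand and SLC6A9 at chr1:43991500-44031467, also on the minus strand. The pair SLC7A5 and SLC3A2 lies at chr16:87830023-87869507 (minus) and chr11:62856004-62888880 (plus). SLC38A1 and SLC38A2 both lie on the minus strand, at chr12:46183063-46270017 and chr12:46358188-46372773. SLC7A1 lies at chr13:29509414-29595688 (minus), SLC7A6 at chr16:68264516-68301823 (plus), SLC1A4 at chr2:64988477-65023865 (plus) and SLC43A1 at chr11:57484534-57515780 (minus).

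Promoter sequence was read from RefSeq (GRCh38.p14) for the 10 genes, which have 17 annotated start sites, in windows from 250 bases before to 50 bases after each start. They are shown because CEBPG and ATF4 belong to families that bind DNA near such starts. The core of the C/EBP-ATF composite element was searched as TGATGNAA on both strands (TTNCATCA on the other). It was found in 5 of the 17 windows, each of a different gene (5 of the 10 genes), and in 3.62% of all 35116 windows (4.46% of 27305 genes). All windows include those of genes absent from the expression table, and the 10 genes were chosen by name. The shares were therefore not tested against each other. Each match is given with its surroundings on the strand of the gene, in 30 bases, with the matched letters in capitals.

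SLC1A5: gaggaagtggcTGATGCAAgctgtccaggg
SLC1A4: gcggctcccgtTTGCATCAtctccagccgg
SLC7A1: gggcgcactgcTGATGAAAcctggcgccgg
SLC38A1: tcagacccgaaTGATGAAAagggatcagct
SLC3A2: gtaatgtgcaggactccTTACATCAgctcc

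The first match begins 97 bases before a downstream start of SLC1A5 (chr19:46784893-46784922, minus strand). In SLC1A4 it begins 7 bases before a start (chr2:64989381-64989410, plus). That of SLC38A1 begins 4 bases before a start (chr12:46266502-46266531, minus). In SLC7A1 and SLC3A2 the match begins 7 and 37 bases after a start (chr13:29595663-29595692, minus, and chr11:62881719-62881748, plus). Of these 5 genes SLC1A5 was called lower and the other 4 were not called, against 20.9% of all tested genes called. A match is only a description of the letters in the window, and the table does not tie a transcript to a start site.

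The 250 bases before the upstream start of SLC1A5 (chr19:46788595-46788844, minus strand) and before that of SLC6A9 (chr1:44031463-44031712, minus strand) are shown because these were the 2 called transporters. A CCAAT box, the motif from which the C/EBP family takes its name, is in capitals.

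SLC1A5: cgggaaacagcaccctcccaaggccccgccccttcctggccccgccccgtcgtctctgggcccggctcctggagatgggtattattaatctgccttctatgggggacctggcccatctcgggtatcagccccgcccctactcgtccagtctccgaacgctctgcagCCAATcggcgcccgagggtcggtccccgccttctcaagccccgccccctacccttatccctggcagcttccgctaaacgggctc
SLC6A9: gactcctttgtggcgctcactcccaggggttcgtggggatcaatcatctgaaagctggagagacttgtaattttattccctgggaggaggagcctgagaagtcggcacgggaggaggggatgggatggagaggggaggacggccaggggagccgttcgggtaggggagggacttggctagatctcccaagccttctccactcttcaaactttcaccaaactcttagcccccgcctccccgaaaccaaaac

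CCAAT, searched on both strands, begins 84 bases before that start of SLC1A5. It was found in windows of 4 of the 10 genes and in 39.7% of all genes with a window. TGATGNAA and CCAAT were in no window of SLC6A9. The cyclic AMP response element TGACGTCA, which reads the same on both strands, was in no window of the 10 genes and in 2.25% of all genes.

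Before the transporters were compared, the knockdown was read in each library. CEBPG had 17.1 and 18.1 FPKM in controls 1 and 2, against 6.91 and 7.96 FPKM in knockdowns 1 and 2, a log2 fold change of -1.14 (limma, adjusted p = 0.000836). Each knockdown library was thus lower in CEBPG, as labelled. Markers of the labelled cell type were mostly low or not listed. Of 10 promyelocyte granule genes 7 were listed and 3 of them stayed under 1 FPKM in all libraries. Of 12 myeloid genes 10 were listed and 8 stayed under 1 FPKM. Against this, 17 of 20 erythroid markers were over 10 FPKM in every library. Their summed level was 8207 to 8685 FPKM in the control libraries and 9116 to 9678 FPKM in the knockdown libraries, and their part in the results below was not tested. Of the 18 tested erythroid markers 3 were called higher and 4 lower, 10 had a log2 fold change below 0, and the median was -0.025. The summed level is dominated by the most abundant globins, with HBG1 at 1539 and 1485 FPKM in controls 1 and 2, against 1998 and 1897 FPKM in knockdowns 1 and 2, and HBG2 at 3095 and 2890 FPKM against 3766 and 3479 FPKM. Called higher were HBG1, HBG2, TAL1 and CLEC11A, and those called lower included HBZ, ALAS2, ANK1 and LYZ. CD33 and SPI1 were the tested myeloid genes and were not called. Of the promyelocyte granule genes AZU1 and PRTN3 were between 0.0897 and 0.57 FPKM, while LYZ was between 15.0 and 20.1 FPKM, SRGN between 3.87 and 4.79 FPKM and CLEC11A between 2.06 and 4.67 FPKM. The erythroid levels go against the label, and the identity of the cells labelled NB4 is uncertain for every value given here.

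**Figure D1:**
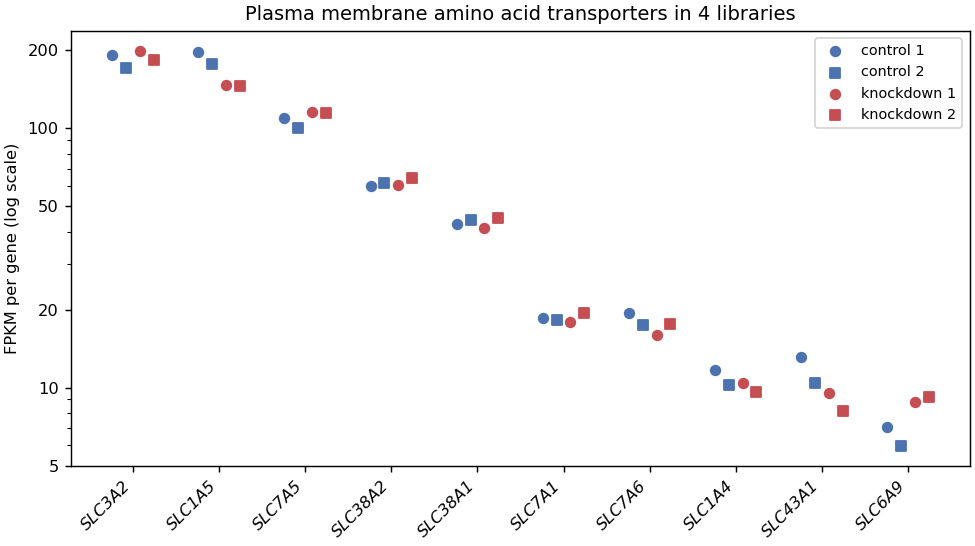
FPKM of the 10 transporter genes on a log axis, ordered by their mean over the 4 libraries. Blue points are the control libraries and red points the knockdown libraries, circles for replicate 1 and squares for replicate 2. Levels run from 5.95 FPKM (SLC6A9 in control 2) to 199 FPKM (SLC3A2 in knockdown 1), and the red points of SLC1A5 lie below its blue points.

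Levels per length differed widely between the transporters. Over the 4 libraries SLC3A2 had the highest mean, 186 FPKM, followed by SLC1A5 at 167 FPKM, SLC7A5 at 110 FPKM, SLC38A2 at 61.7 FPKM and SLC38A1 at 43.4 FPKM. SLC7A1 (18.5 FPKM), SLC7A6 (17.5 FPKM), SLC1A4 (10.5 FPKM), SLC43A1 (10.3 FPKM) and SLC6A9 (7.76 FPKM) followed. Of the 9 neighbouring pairs in this order 5 had ranges over the 4 libraries that did not overlap. The ranges overlapped for SLC3A2 with SLC1A5, SLC7A1 with SLC7A6, SLC1A4 with SLC43A1, and SLC43A1 with SLC6A9. SLC3A2 ranked 250 of 16504 genes, SLC1A5 288 and SLC7A5 496, while SLC6A9 ranked 6258. Together SLC3A2, SLC1A5 and SLC7A5 held 71.9% to 74.2% of the summed level of the 10 genes.

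The summed level of the 10 genes was 671 and 617 FPKM in controls 1 and 2, against 626 and 618 FPKM in knockdowns 1 and 2. The knockdown libraries lay within the range of the control libraries. As a share of all FPKM it was 0.183% and 0.179% against 0.171% and 0.174%.

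The fit compared the groups on the log2(FPKM + 1) scale in the 10968 genes whose mean reached 1 FPKM, and all 10 transporters passed this filter. An adjusted p under 0.05 was reached by 2 of the 10 transporters, against 20.9% of all tested genes. Of all tested genes 10.9% were called higher and 9.99% lower, and of the 10 transporters 1 was called in each direction. No transporter passed the threshold of the study (log2 fold change beyond 1 in size, p under 0.05, read as unadjusted), which 0.602% of all tested genes passed. The study applied this threshold to another test, DESeq2, and reported far more genes past it. The 0.602% thus belongs to the fit used here and is not the share found by the study. At an unadjusted p under 0.05 there were 3 transporters, against 37% of all tested genes. The 2 groups did not overlap in 4 transporters, 2 higher (SLC7A5 and SLC6A9) and 2 lower (SLC1A5 and SLC43A1) in the knockdown, against 64.8% of all tested genes.

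The median log2 fold change of the 10 transporters was 0.0032, and that of all tested genes 0.015. The median of the transporters had no stable sign, with -0.0014 without control 1, 0.038 without knockdown 1 and -0.049 without knockdown 2. The median absolute log2 fold change was 0.12 for the transporters and 0.15 for all tested genes. The median replicate SD was 0.084 and 0.071 on the same scale. With 2 libraries against 2, an exact permutation test of a single gene cannot give a 2-sided p below 0.333, so the calls rest on the spread shared across genes by limma.

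**Figure D2:**
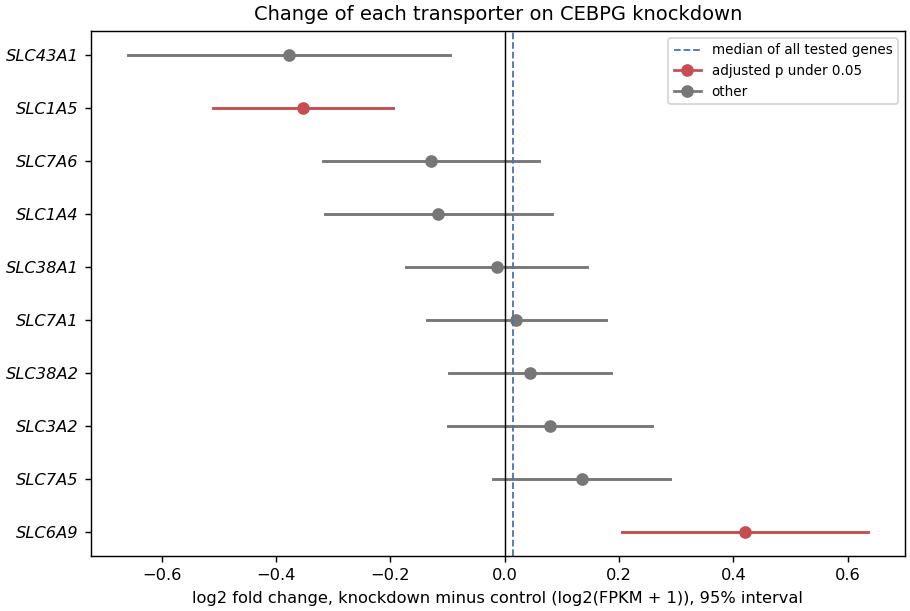
Log2 fold change of each transporter (knockdown minus control, on the log2(FPKM + 1) scale) with its 95% confidence interval from limma. Red marks an adjusted p under 0.05 and grey the other genes, and the dashed line is the median of all tested genes (0.015). SLC1A5 at -0.35 and SLC6A9 at 0.42 are the 2 called genes, and the interval of SLC43A1 (-0.66 to -0.096) also lies below 0.

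The exchangers of small neutral amino acids were read first. SLC1A5 had 197 and 178 FPKM in controls 1 and 2, against 147 and 145 FPKM in knockdowns 1 and 2. Each knockdown value was under each control value, and the gap between the groups was larger than the gap of 18.6 FPKM between the controls. The control mean was 187 ± 13.2 FPKM (SD, n = 2) and the knockdown mean 146 ± 1.35 FPKM (SD, n = 2). The log2 fold change came to -0.35 (standard error 0.066, 95% confidence interval -0.51 to -0.20, limma, adjusted p = 0.0138). An absolute change of this size or more was found in 14.8% of all tested genes. The call was lost without knockdown 1 (log2 fold change -0.36) and without knockdown 2 (-0.34). The size stayed between -0.42 and -0.28 over the fits that left out 1 library. Each such fit leaves 1 library in a group, and fewer of all tested genes were called in each of them.

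SLC1A4, the relative of SLC1A5 for alanine, serine and cysteine, had 11.7 and 10.2 FPKM in controls 1 and 2, against 10.4 and 9.64 FPKM in knockdowns 1 and 2. The groups overlapped. Its log2 fold change was -0.12 (95% confidence interval -0.31 to 0.083, limma, adjusted p = 0.354), and it was -0.030 without control 1 and -0.20 without control 2. There were 16.8 and 17.4 units of SLC1A5 per unit of SLC1A4 (FPKM ratio) in controls 1 and 2, against 14.1 and 15.1 in knockdowns 1 and 2.

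The glycine importer SLC6A9 had the highest log2 fold change of the 10. It had 7.07 and 5.95 FPKM in controls 1 and 2, against 8.83 and 9.21 FPKM in knockdowns 1 and 2, and the groups did not overlap. The control mean was 6.51 ± 0.791 FPKM (SD, n = 2) and the knockdown mean 9.02 ± 0.269 FPKM (SD, n = 2). The log2 fold change came to 0.42 (standard error 0.090, 95% confidence interval 0.21 to 0.63, limma, adjusted p = 0.021). The call was lost without control 2 (0.31, limma adjusted p = 0.0637), without knockdown 1 (0.45, 0.0727) and without knockdown 2 (0.39, 0.0912). Exons of SLC6A9 share 413 bases with CCDC24 on the other strand, which was at 0.333 and 0.469 FPKM in controls 1 and 2, against 0.709 and 0.539 FPKM in knockdowns 1 and 2, and it was not stated whether counting used the strand.

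SLC43A1, a sodium-independent carrier of branched-chain amino acids, had 13.1 and 10.4 FPKM in controls 1 and 2, against 9.50 and 8.09 FPKM in knockdowns 1 and 2. Each knockdown value was under each control value, but the controls differed from each other by 2.69 FPKM and its replicate SD on the log2 scale was at or above that of 92.7% of tested genes. The log2 fold change came to -0.38 (standard error 0.119, limma, adjusted p = 0.065), which missed the threshold. It was called lower after median-ratio scaling (-0.39, limma adjusted p = 0.0439), after scaling the columns to 1 sum (-0.40, 0.0289), among genes whose mean reached 5 FPKM (-0.38, 0.0371) and without control 2 (-0.53, 0.0252). It was not called without control 1 (-0.22, limma adjusted p = 0.201), without knockdown 1 (-0.48, 0.0862) or without knockdown 2 (-0.27, 0.247).

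The heavy chain SLC3A2 had 191 and 171 FPKM in controls 1 and 2, against 199 and 184 FPKM in knockdowns 1 and 2. The groups overlapped, and the log2 fold change was 0.079 (95% confidence interval -0.10 to 0.26, limma, adjusted p = 0.485). Its light chain SLC7A5 had 110 and 99.97 FPKM in controls 1 and 2, against 116 and 115 FPKM in knockdowns 1 and 2. Each knockdown value was over each control value, with a log2 fold change of 0.13 (95% confidence interval -0.021 to 0.29, limma, adjusted p = 0.185), which was not called. The size for SLC7A5 was 0.065 without control 2 and 0.20 without control 1, and for SLC3A2 it was 0.00044 and 0.16.

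SLC7A6, the light chain that exchanges arginine for neutral amino acids, had 19.3 and 17.4 FPKM in controls 1 and 2, against 15.9 and 17.5 FPKM in knockdowns 1 and 2. Knockdown 2 lay between the controls, and the log2 fold change was -0.13 (95% confidence interval -0.32 to 0.060, limma, adjusted p = 0.285), with -0.056 without control 1 and -0.20 without control 2. Exons of SLC7A6 share 3372 bases with SLC7A6OS on the other strand, so reads of the 2 genes may not be separable. SLC7A6OS had 7.72 and 6.29 FPKM in controls 1 and 2, against 7.15 and 6.99 FPKM in knockdowns 1 and 2.

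The ratio of SLC7A5 to SLC3A2 was 0.576 and 0.583 in controls 1 and 2, against 0.581 and 0.625 in knockdowns 1 and 2. That of SLC1A5 to SLC7A5 was 1.78 in both controls, against 1.27 and 1.26 in knockdowns 1 and 2. SLC1A5 and SLC7A5 are coupled in many cells, since glutamine taken up by the first can be exchanged for leucine by the second. In the control libraries SLC1A5 was above SLC3A2, at 1.03 and 1.04 times its level, and in the knockdown libraries below it, at 0.739 and 0.790 times. These ratios are descriptions of mRNA levels per length and were not tested.

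SLC38A1 and SLC38A2, the sodium-coupled glutamine importers, were not called. SLC38A1 had 42.9 and 44.2 FPKM in controls 1 and 2, against 41.1 and 45.3 FPKM in knockdowns 1 and 2, so that both control values lay within the range of the knockdown values. Its log2 fold change was -0.014 (95% confidence interval -0.17 to 0.14, limma, adjusted p = 0.902). SLC38A2, a gene known to respond to amino acid shortage, had 59.96 and 61.5 FPKM in controls 1 and 2, against 60.7 and 64.6 FPKM in knockdowns 1 and 2. Its log2 fold change was 0.044 (95% confidence interval -0.098 to 0.19, limma, adjusted p = 0.632), with 0.00025 without knockdown 2 and 0.088 without knockdown 1. The cationic carrier SLC7A1 had 18.6 and 18.2 FPKM in controls 1 and 2, against 17.96 and 19.4 FPKM in knockdowns 1 and 2, with a log2 fold change of 0.020 (95% confidence interval -0.14 to 0.18, limma, adjusted p = 0.851). For SLC38A1 and SLC7A1 the direction turned when single libraries were left out. In all, the 95% confidence intervals of 7 transporters, all but SLC1A5, SLC6A9 and SLC43A1, lay between -0.5 and 0.5. Of all called genes 72.9% also had an absolute log2 fold change under 0.5. An interval inside this range thus does not set a transporter apart from called genes.

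**Figure D3:**
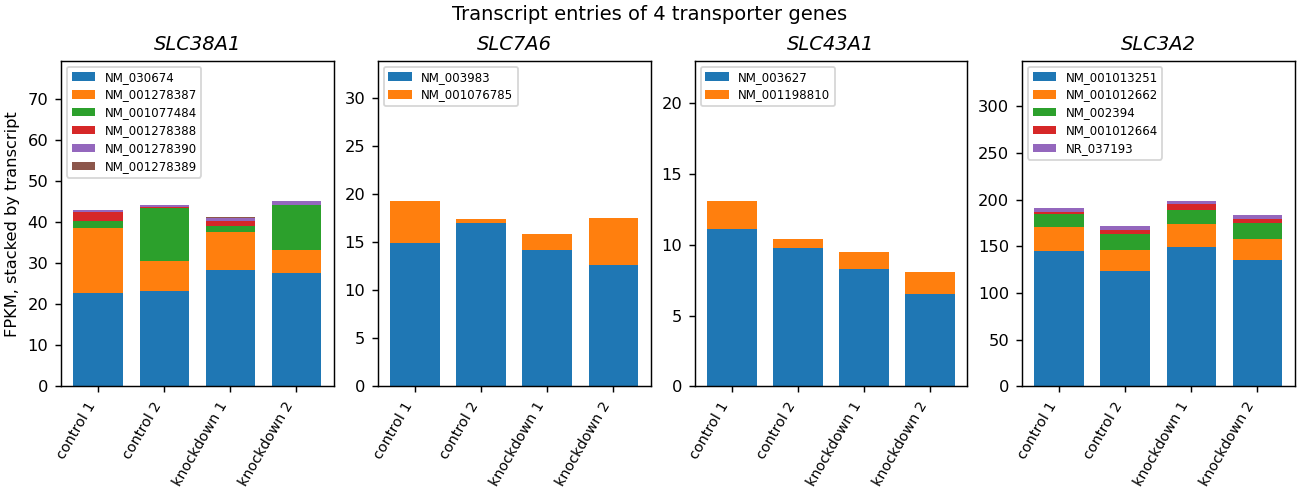
FPKM of each RefSeq transcript entry, stacked per library, for SLC38A1, SLC7A6, SLC43A1 and SLC3A2. Each colour is a transcript of that gene and the height of a bar is the gene sum. In SLC38A1 the green entry NM_001077484 is at 1.59 and 1.605 FPKM in the libraries numbered 1 and at 12.8 and 11.01 FPKM in those numbered 2.

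The 10 genes had 27 transcript entries, of which 19 had a mean of at least 1 FPKM. SLC7A5 (NM_003486) and SLC7A1 (NM_003045) had a single entry, and the other 8 had 2 or more. Fitted as transcripts, 4 of the 19 had an unadjusted p under 0.05 and none an adjusted p under 0.05 (limma, lowest 0.114), against 20.3% and 0.158% of all 15795 transcripts tested. The entry NM_005628 held 99.4% of the SLC1A5 signal and had a log2 fold change of -0.35 (limma, adjusted p = 0.114). For SLC6A9, NM_001024845 held 98.0% and had a log2 fold change of 0.46 (limma, adjusted p = 0.172). The other entries of both genes were low, so the gene sums of SLC1A5 and SLC6A9 rested on 1 transcript each.

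In SLC38A1 the sum hid differences between entries. NM_030674, with 58.8% of the signal, had 22.9 and 23.3 FPKM in controls 1 and 2, against 28.4 and 27.6 FPKM in knockdowns 1 and 2. Both knockdown values lay above both control values, with a log2 fold change of 0.27 (limma, unadjusted p = 0.00873, adjusted p = 0.129). NM_001278387 had 15.8 and 7.25 FPKM in controls 1 and 2, against 9.15 and 5.61 FPKM in knockdowns 1 and 2, and NM_001077484 had 1.59 and 12.8 FPKM against 1.605 and 11.01 FPKM. NM_001077484 differed more between the libraries of each group than between the group means, and NM_001278387 did so in the control group.

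SLC7A6 had a like split, with NM_001076785 at 4.41 and 0.352 FPKM in controls 1 and 2, against 1.68 and 4.84 FPKM in knockdowns 1 and 2. Its main entry NM_003983, with 83.9% of the signal, was at 14.9 and 17.0 FPKM against 14.2 and 12.7 FPKM, with a log2 fold change of -0.23 (limma, adjusted p = 0.324). In SLC43A1 the main entry NM_003627 (86.8%) was at 11.1 and 9.79 FPKM against 8.26 and 6.54 FPKM, with a log2 fold change of -0.45 (limma, adjusted p = 0.212). For SLC3A2 the largest of 5 entries, NM_001013251, held 74.1% of the signal at 145 and 123 FPKM against 149 and 136 FPKM. Its other entries NM_001012662, NM_002394, NM_001012664 and NR_037193 held 12.8%, 8.56%, 2.37% and 2.20%. NM_018976 held 98.0% of SLC38A2 beside NM_001307936 (2.04%), NM_003038 held 99.7% of SLC1A4, and NM_001198810 held 13.2% of SLC43A1. The division of reads between entries of a gene depends on the quantifier, which was not given in the sources used here.

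SLC7A5 has near-identical copies, so its value is uncertain to the extent that reads were shared with them. SLC7A5P1 had 3.58 and 3.43 FPKM in controls 1 and 2, against 5.34 and 6.18 FPKM in knockdowns 1 and 2 (log2 fold change 0.58, limma, adjusted p = 0.00791). SLC7A5P2 was at 1.54 and 1.596 FPKM against 1.70 and 1.49 FPKM. SLC7A5P1 was at 0.0325 to 0.0538 of the level of SLC7A5 over the 4 libraries. SNHG1, the noncoding RNA gene upstream of SLC3A2, had 182 and 165 FPKM in controls 1 and 2, against 206 and 203 FPKM in knockdowns 1 and 2 (0.24, limma, adjusted p = 0.0455).

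Other plasma membrane amino acid transporters were read from a list of 32 genes. Of these, 12 were listed, 5 had a mean of at least 1 FPKM, and 7 stayed under 1 FPKM in all libraries. Of the 5 tested genes 2 were called higher and 1 lower, against 20.9% of all tested genes called. SLC7A8, also a light chain of SLC3A2 for neutral amino acids, had 25.6 and 23.3 FPKM in controls 1 and 2, against 48.0 and 48.3 FPKM in knockdowns 1 and 2. Its knockdown mean was 197% of the control mean, with no overlap, and the log2 fold change came to 0.95 (standard error 0.066, 95% confidence interval 0.79 to 1.11, limma, adjusted p = 0.000801). The call of SLC7A8 held in each of the 4 fits that left out 1 library, and over all 12 alternatives it was missed only for its main transcript fitted among all transcripts (adjusted p = 0.0587).

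SLC6A6, the taurine importer, had 13.4 and 13.7 FPKM in controls 1 and 2, against 18.7 and 18.8 FPKM in knockdowns 1 and 2 (log2 fold change 0.44, limma, adjusted p = 0.00511). Of its 2 largest entries, NR_103507 (45.1% of the signal) had 7.07 and 7.97 FPKM in controls 1 and 2, against 9.12 and 4.99 FPKM in knockdowns 1 and 2. NM_003043 (44.4%) had 4.54 and 4.83 FPKM against 7.78 and 11.6 FPKM, higher in both knockdown libraries. SLC6A19, a neutral amino acid importer best known from kidney and intestine, had 18.6 and 16.2 FPKM in controls 1 and 2, against 13.2 and 12.3 FPKM in knockdowns 1 and 2 (log2 fold change -0.42, limma, adjusted p = 0.0163). The call of SLC6A19 was lost without knockdown 2 (-0.37, limma adjusted p = 0.0848). SLC38A5 was at 58.2 and 52.1 FPKM against 53.6 and 54.6 FPKM (-0.026, 0.818), and SLC7A11, the cystine exchanger, at 5.99 and 6.35 FPKM against 6.49 and 7.499 FPKM (0.16, 0.244).

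**Figure D4:**
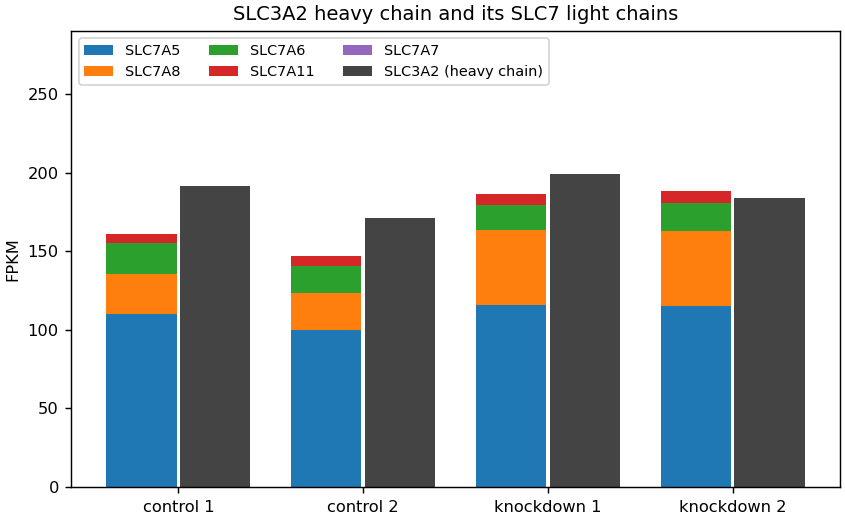
FPKM of the heavy chain SLC3A2 (dark bars) beside the stacked FPKM of its SLC7 light chains in each library, with bars starting at 0. SLC7A8 (orange) is at 25.6 and 23.3 FPKM in controls 1 and 2, against 48.0 and 48.3 FPKM in knockdowns 1 and 2, while SLC7A5 (blue) stays between 99.97 and 116 FPKM.

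The light chains that pair with SLC3A2 were added up for SLC7A5, SLC7A6, SLC7A7, SLC7A8 and SLC7A11. Their sum was 161 and 147 FPKM in controls 1 and 2, against 186 and 188 FPKM in knockdowns 1 and 2. Per unit of SLC3A2 this was 0.843 and 0.858 in controls 1 and 2, against 0.936 and 1.02 in knockdowns 1 and 2. SLC7A8 made up most of the difference: its ratio to SLC7A5 was 0.233 in both controls, against 0.415 and 0.420 in knockdowns 1 and 2. SLC7A6 was at 0.176 and 0.174 of SLC7A5 in the controls and at 0.137 and 0.153 of it after knockdown. SLC7A7 stayed under 1 FPKM in all libraries. These sums and ratios are descriptions and were not tested.

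Transporters of the lysosome, which return amino acids from degraded protein to the cytosol, were read from a list of 8 genes, of which 6 were tested. SLC36A1 was called higher, from 2.39 and 2.47 FPKM to 3.33 and 3.79 FPKM (log2 fold change 0.41, limma, adjusted p = 0.0277). None of the other 5 was called, and 1 of 6 is near the 20.9% of all tested genes. The call of SLC36A1 was lost in each fit without 1 library, where the adjusted p was 0.0765 without control 1, 0.068 without control 2, 0.0595 without knockdown 1 and 0.13 without knockdown 2 (limma).

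Imported amino acids are read by sensors that act on the kinase complex mTORC1 at the lysosome. Of 31 such genes 30 were tested, 5 were called higher and 2 lower, again near the 20.9% of all tested genes, and their median log2 fold change was -0.00029. BMT2, the sensor of S-adenosylmethionine, was called higher (0.56, limma, adjusted p = 0.00764), as were SESN3 (0.50, 0.0277), FNIP1 (0.37, 0.0192), SESN1 (0.35, 0.0375) and RRAGB (0.33, 0.0431). LARS1, the leucyl-tRNA synthetase that also senses leucine, had 50.8 and 50.7 FPKM in controls 1 and 2, against 36.4 and 38.1 FPKM in knockdowns 1 and 2 (-0.44, limma, adjusted p = 0.00446). KPTN was the other gene called lower (-0.33, limma, adjusted p = 0.0479). SESN2, a leucine sensor and a known ATF4 target, was at 16.3 and 15.3 FPKM against 15.1 and 13.9 FPKM and was not called (-0.11, limma, adjusted p = 0.30). The calls of BMT2 and LARS1 held in all 4 fits that left out 1 library. Those of RRAGB and KPTN were lost in all 4, with adjusted p from 0.103 to 0.185 and from 0.0639 to 0.173 (limma). SESN3 and FNIP1 were called only without control 2 (limma adjusted p = 0.0352 and 0.0264), and SESN1 only without control 1 (0.0214). With the main transcript in place of the gene sum, SESN1 had a log2 fold change of 0.024 (limma, adjusted p = 0.945). Of the 30 genes 4 were called without control 1, and 2 without knockdown 1 or without knockdown 2, where 17.6%, 7.52% and 7.64% of all tested genes were called.

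Of 9 bZIP factors linked to the amino acid response 2 were called lower and 1 higher, against 9.99% and 10.9% of all tested genes, and 1 of the 3 is the knockdown target. Apart from CEBPG itself, ATF5 fell from 39.2 and 36.6 FPKM to 15.9 and 17.5 FPKM (log2 fold change -1.14, limma, adjusted p = 0.000638). NFE2L2 rose from 41.4 FPKM in both control libraries to 50.8 and 48.6 FPKM (0.26, limma, adjusted p = 0.0233), and its call was lost without knockdown 1 (0.23, 0.164) and without knockdown 2 (0.29, 0.0923). ATF4 mRNA was at 232 and 211 FPKM against 241 and 228 FPKM (0.085, limma, adjusted p = 0.409) and DDIT3 at 34.9 and 32.3 FPKM against 37.9 and 36.0 FPKM (0.13, 0.194). Neither ATF4 nor DDIT3 was called.

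**Figure D5:**
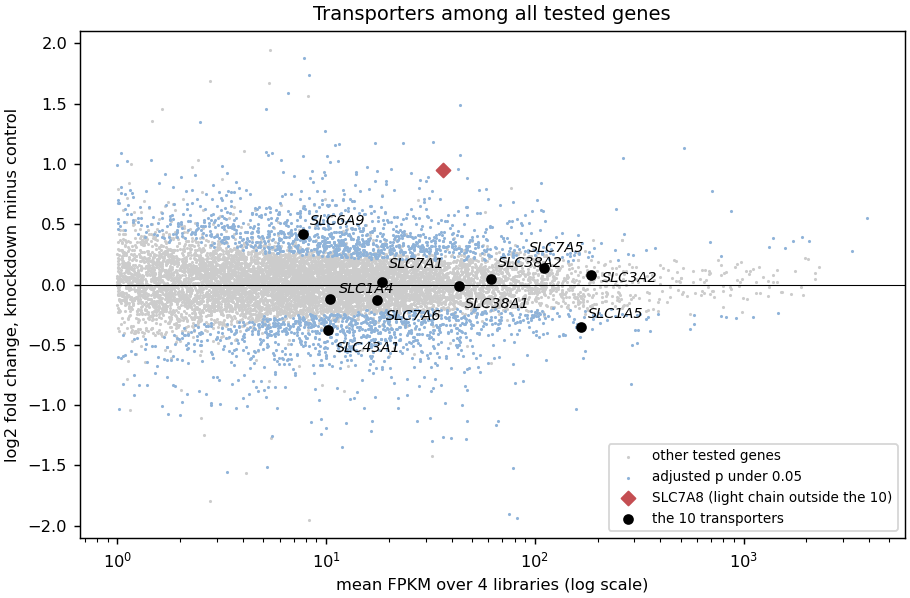
Log2 fold change (knockdown minus control) against mean FPKM over the 4 libraries, on a log axis, for all 10968 tested genes, with 3 genes outside the plotted range. Black points are the 10 transporters, the red diamond is SLC7A8, and blue points are other genes with an adjusted p under 0.05. SLC1A5 at -0.35 and SLC6A9 at 0.42 lie among the called genes, while SLC7A8 lies apart from the 10 at 0.95.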

How the data were processed

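Total RNA of 4 NB4 libraries was sequenced after TruSeq library preparation. FPKM values per library were deposited by the authors for 29265 RefSeq transcript entries. The submitters' processing notes name HISAT2 2.0.5 and hg38. The quantifier and annotation were not given in the sources used here. FPKM depends on the division of reads between transcripts and on the mapped total. Among 2798 low single-transcript genes the most common ratio of the control libraries made up 0.286%, so whole reads were not recovered and depth was unknown.

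Entries without a value (183) or a symbol (164, with 0.250% of FPKM) were left out, and 28918 transcripts were summed to 16504 symbols. Genes whose mean reached 1 FPKM were compared as log2(FPKM + 1) in limma 3.58.1 (R 4.3.3; linear model, mean trend, 2-sided, Benjamini-Hochberg adjustment, no block), which understates changes of low genes. The study's count test could not be applied to FPKM. Simulated data with planted changes were used only to check that the fit returned changes of the planted size. They were drawn as independent values, so they cannot show whether the libraries of a group are independent. A gene was called at an adjusted p under 0.05. Replicate numbers were not treated as pairs: the labels tie them to nothing, and the correlation of deviations between libraries of the same number was 0.101.

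All 10 transporters were named, with their transcripts of at least 1 FPKM and CEBPG, and of each other list the called genes or, where none was called, the 3 most abundant. The other genes named in the text, such as SESN2, ATF4, DDIT3, SLC38A5, SLC7A11, SLC7A7, AZU1, PRTN3 and CCDC24, were chosen after their values were seen. The transporters and lists were chosen with earlier results of these data known. Protein sequences were not analysed here, and 1 called marker gene is not reported here. Alternatives were another pseudocount, other filters, scaling of the columns, no mean trend, transcripts in place of genes, a replicate block, and each library left out.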

Additional observations from a re-analysis of the deposited data

How the results depend on the processing

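Over 12 alternatives and 10 transporters (120 values), 101 kept their direction and side of the threshold. The direction turned in 5 (without 1 library SLC38A1 ranged from -0.081 to 0.054 and SLC7A1 from -0.033 to 0.073): SLC38A1 with its main transcript in place of the gene (0.27), without control 2 (0.0068) and without knockdown 1 (0.054), and SLC7A1 after scaling to 1 sum (-0.00085) and without knockdown 2 (-0.033). Outside the 10, SLC6A6 turned to -0.13 as its largest transcript, NR_103507, which holds 45.1% of its signal. SLC1A5 stayed lower and SLC6A9 higher in all 12, with adjusted p from 0.000346 to 0.114 and from 0.00501 to 0.172 (limma).

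The number of transporters called (2) was 0 with no filter on low values, with transcripts in place of genes, and without knockdown 1 or knockdown 2; over the fits without 1 library it ranged from 0 to 2. With the replicate block it was 3, SLC43A1 being added (adjusted p = 0.00356), and the genes called rose from 2288 to 3440. Genes called were 882 with no filter, 25 with transcripts (3213 at an unadjusted p under 0.05), and 825 to 1925 without 1 library. Genes past the threshold of the study went from 66 to 146 with a pseudocount of 0.1 and to 317 with transcripts. Other plasma membrane transporters called fell from 3 to 0 with transcripts, and bZIP factors from 3 to 1. Sensing genes called (7) were 3 with a mean of at least 5 FPKM, 2 with no filter, 0 with transcripts and 2 to 5 without 1 library. The lysosomal count (1) was 0 with a mean of at least 5 FPKM, with no filter, with transcripts and without any 1 library. The cause was not tested. Depth was unknown, so what it limits could not be measured.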
